A study of Homo sapiens with 6 samples.

Results

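The genes of oxidative phosphorylation were followed in Kasumi-1 cells, a human line from acute myeloid leukaemia with the RUNX1::RUNX1T1 fusion, after PHF19 had been silenced. The comparison was between 3 RNA-seq libraries with a lentiviral hairpin against PHF19 (shPHF19) and 3 libraries of cells with a scrambled control hairpin (control). PHF19 belongs to the accessory subunits of Polycomb repressive complex 2, the methyltransferase for lysine 27 of histone H3. Both kinds of cell were of the same line, carried the same vector type with a GFP and a puromycin resistance gene, and went through puromycin selection (2 µg/ml) that began 48 h after infection and lasted at least 24 h. In the labels the control cells are marked wild type, whereas the treatment protocol gives them a scrambled hairpin. Members were all genes whose symbol begins with NDUFA, NDUFB, NDUFC, NDUFS, NDUFV, SDHAF, UQCR, ATP5 or COX followed by a digit, the genes SDHA to SDHD, and CYC1 and CYCS. Of 26410 genes counted, 118 fitted, 4 antisense and 3 pseudogene names were left out, and 111 members remained, of which 101 had enough counts to be tested. The table uses older symbols for 20 members, and they are kept here, with current names given where the gene is described. No gene encoded by mitochondrial DNA is among the genes analysed here, so every member is a nuclear gene.

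Oxidative phosphorylation passes electrons from NADH through complex I, or from succinate through complex II, to ubiquinone, then through complex III and cytochrome c to complex IV, where oxygen is reduced. Complexes I, III and IV pump protons across the inner mitochondrial membrane, and complex V, the ATP synthase, lets them flow back to make ATP. Each complex except complex II combines subunits from nuclear and mitochondrial DNA, and dedicated assembly factors, which are not part of the finished enzyme, put them together.

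The libraries held 14229878 to 16615143 counts. PHF19 itself had 41.1, 36.9 and 33 CPM (counts relative to library size, scaled between libraries by the TMM method) in shPHF19 cells, against 168, 199 and 189 CPM in control cells (log2 fold change -2.32; edgeR quasi-likelihood test, adjusted p = 3.55e-25). The myeloid genes of the line were present in both groups, with KIT at 3290 and MPO at 8390 CPM in shPHF19 cells and at 2940 and 4280 CPM in control cells. Of 12 marker genes of erythroid, lymphoid, epithelial and stromal cells, EPCAM stood at 84.7 CPM in shPHF19 cells and 56.8 CPM in control cells, and the other 11 averaged under 4 CPM in both groups. Nothing in the labels says that replicates were separate cultures, so a p-value here measures only how far these libraries differ, which may be technical. In bulk RNA, a change in the number of cells that express a gene and a change in its amount per cell cannot be told apart.

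Most oxidative phosphorylation genes were higher in shPHF19 cells. Of the 101 tested members 79 rose, 3 fell and 19 missed the threshold (edgeR quasi-likelihood test, adjusted p under 0.05 over all 13014 genes tested). Over all genes tested 60.2% passed, 29.4% as higher and 30.9% as lower. Groups that did not overlap were common. The shPHF19 libraries all lay above the control libraries in 80 tested members and all below in 3. Over all genes tested these shares were 30.9% and 32.6%. The median log2 fold change of the tested members was 0.65, a 1.57-fold difference, against -0.03 over all genes tested, and 85.4% of all genes tested lay below the members' median. At least a 2-fold rise was found for 18 members, whereas 5.72% of all genes tested rose that far. The 3 members that fell were SDHD, a complex II subunit, SDHAF4, a complex II assembly factor, and COX7A2L, a factor that joins complexes III and IV.

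**Figure D1:**
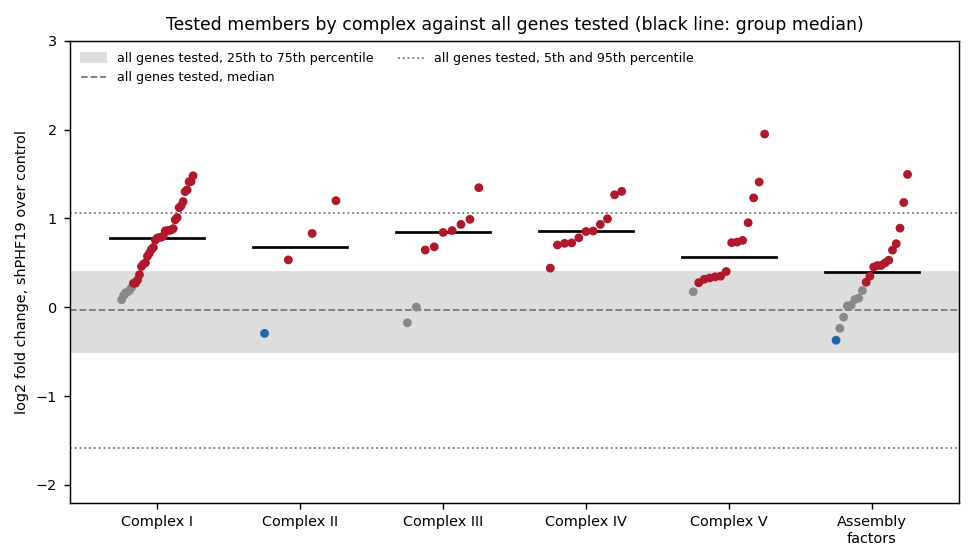
Each point is 1 tested member, placed by its log2 fold change of shPHF19 over control (vertical axis) in its complex or among the assembly factors (horizontal axis), red where it rose, blue where it fell and grey where it did not pass the test. Black lines are group medians (0.78, 0.68, 0.84, 0.85, 0.56 and 0.40 for complexes I to V and the assembly factors), the complex IV group holds its usual isoforms, and the grey band spans the 25th to 75th percentile of all genes tested, -0.50 to 0.39.

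As a sum over members, oxidative phosphorylation transcripts took 1.32 ± 0.0115% of all counts in shPHF19 libraries and 0.963 ± 0.0418% in control libraries (SD, n = 3 each). On the CPM scale the sum was 1.58 times as high in shPHF19 cells as in control cells. By complex, that ratio was 1.63 for complex I, 1.58 for complex II, 1.54 for complex III, 1.76 for the usual isoforms of complex IV and 1.58 for complex V. For the assembly factors it was 1.31. The scaling between libraries bears on these sizes, since the TMM factors were 0.919 to 0.945 in shPHF19 libraries and 1.06 to 1.08 in control libraries. With library totals alone the median of all genes moved to -0.24 and that of the members to 0.44, with 65 members higher and 7 lower.

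The members differed from other tested genes in length and level. Their median exon length was 2540 bp, against 4970 bp over all genes tested with an annotated length, and their median level was 74.2 CPM, against 28.3 CPM. Across all 13014 genes tested, the log2 fold change went with the mean level (Spearman's rho 0.335), and across the 101 members more weakly so (0.14). With exon length it ran the opposite way, with a rho of -0.383 across the members and -0.119 across the 12653 tested genes with an annotated length. Genes share libraries and are not independent, and the part of expression level and length in the members' rise was not tested. With a trend on exon length taken out of the counts, 77 members rose, 4 fell and the members' median was 0.57.

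Promoters of the members are shown because they carry letters recognised by factors known to drive respiratory genes. Letters searched on both strands were 2 GCGC blocks with any base and a T between them (nuclear respiratory factor 1, NRF1), CCGGAAG (the ETS family, which includes GABP) and AANATGGCG (YY1), from 250 bases before to 50 after each RefSeq start (GRCh38.p14). Promoters were found for 89 members. The NRF1 letters occurred in 23.6% of them, against 13.2% of the 9628 tested genes with a promoter matched by symbol. For the ETS letters the shares were 30.3% and 22.1%, and for the YY1 letters 22.5% and 8.24%. Of the 20 members with YY1 letters, 17 had them at or after the start, and among tested genes 504 of 793 did. At least 1 of the 3 motifs was found in 44 of the 67 members that rose and had a promoter in the table (65.7%), and in 4 of the 13 that did not pass the test (30.8%). Over the 9628 tested genes the share was 37.3%, with 42.7% of those that rose and 37.4% of those that did not pass, so that of the members that did not pass lay near the background, and the contrast among members was not tested. Shown here are the 120 bases before the RefSeq start for 4 members that rose by over 1 on the log2 scale (SDHA, NDUFA9, UQCR11, ATP5G1), for SDHD, which fell, and for ATP5C1, which did not pass the test. They are from the plus strand at chr5:218200-218319 (SDHA), chr12:4648994-4649113 (NDUFA9), chr17:48892667-48892786 (ATP5G1), chr11:112086753-112086872 (SDHD) and chr10:7788057-7788176 (ATP5C1), and from the minus strand at chr19:1605463-1605582 (UQCR11). Capitals mark the matches, NRF1 letters in SDHA, NDUFA9 and ATP5C1, ETS and then NRF1 letters in UQCR11, and NRF1 and then ETS letters in SDHD. Most of these 6 thus hold NRF1 letters, which is not typical of the members. Of the 67 members that rose and had a promoter, 16 held them (23.9%). NDUFB6, NDUFB7 and NDUFS6, which also rose by over 1 on the log2 scale, did not.
SDHA: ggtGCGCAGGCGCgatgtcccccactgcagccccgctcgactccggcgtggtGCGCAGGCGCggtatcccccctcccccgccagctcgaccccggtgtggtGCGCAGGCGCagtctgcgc
NDUFA9: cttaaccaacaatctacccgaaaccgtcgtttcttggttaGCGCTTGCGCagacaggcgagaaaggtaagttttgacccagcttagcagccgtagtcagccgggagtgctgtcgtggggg
UQCR11: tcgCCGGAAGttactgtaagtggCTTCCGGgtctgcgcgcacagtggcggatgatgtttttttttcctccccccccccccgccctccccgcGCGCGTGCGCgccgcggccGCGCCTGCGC
ATP5G1: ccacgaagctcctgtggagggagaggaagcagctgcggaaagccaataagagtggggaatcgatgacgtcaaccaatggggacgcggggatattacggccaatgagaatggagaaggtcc
SDHD: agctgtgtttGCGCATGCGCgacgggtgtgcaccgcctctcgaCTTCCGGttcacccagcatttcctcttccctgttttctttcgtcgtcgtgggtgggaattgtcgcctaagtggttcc
ATP5C1: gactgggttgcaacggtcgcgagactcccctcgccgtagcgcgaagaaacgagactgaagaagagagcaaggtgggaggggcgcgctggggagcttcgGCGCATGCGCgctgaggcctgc
ATP5G1, the member with the highest log2 fold change, held none of the 3 motifs in its window, whereas SDHD held 2 of them. A match is a description of letters, and binding was not measured.

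Complex I takes electrons from NADH through FMN and a chain of iron-sulphur clusters. All 37 of its subunits in the table were tested, of which 31 rose, none fell and 6 missed the threshold, with a median log2 fold change of 0.78. The 7 nuclear core subunits, which include those that hold the redox centres, had a median of 0.50, and 6 of them rose. The 30 supernumerary subunits, which surround the core, had a median of 0.83, and 25 of them rose.

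Among the core subunits, NDUFV1, which binds NADH and FMN, had 253, 216 and 206 CPM in shPHF19 libraries, against 133, 129 and 131 CPM in control libraries. The log2 fold change was 0.78 (SE 0.086; edgeR adjusted p = 7.84e-11), and the groups did not overlap. Its partner in the NADH-oxidising module, NDUFV2, had a log2 fold change of 0.46. NDUFS7 (0.79) and NDUFS8 (0.50), which carry the clusters nearest to ubiquinone, and NDUFS3 (0.67), a subunit of the arm that links both ends, rose as well. NDUFS1, the largest subunit of the complex, averaged 56.6 ± 6.81 CPM in shPHF19 cells and 47.0 ± 3.41 CPM in control cells (SD, n = 3 each), a difference of 0.27 on the log2 scale (edgeR adjusted p = 0.0246) with groups that overlapped. That call was lost without shPHF19 replicate 2 (edgeR adjusted p = 0.151), shPHF19 replicate 3 (0.0738), control replicate 2 (0.0673) or control replicate 3 (0.0855), and its adjusted p ran from 8.9e-06 to 0.614 over all alternatives.

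NDUFA9 had the highest log2 fold change of complex I. It is a subunit near the ubiquinone site that helps to hold the peripheral arm to the membrane arm, and its gene lies on the plus strand of chromosome 12 from 4649095 to 4694317 (GRCh38, GENCODE 29). Its levels were 71.8, 65.4 and 65.1 CPM in shPHF19 libraries, against 21.9, 25.4 and 25.2 CPM in control libraries (log2 fold change 1.48, SE 0.108; edgeR adjusted p = 2.16e-16). Every shPHF19 library was above every control library by more than 2-fold. NDUFB7, a membrane-arm subunit on the side of the intermembrane space, had 77.4, 57.4 and 57.1 CPM in shPHF19 libraries, against 22.4, 24.7 and 24.7 CPM in control libraries (1.42). NDUFB6, also of the membrane arm, averaged 58.9 ± 4.21 CPM in shPHF19 cells and 22.1 ± 4.84 CPM in control cells (1.41). NDUFS5 (1.32) and NDUFS6 (1.30), which are supernumerary in spite of their names, followed. NDUFC1 (1.19), NDUFA3 (1.14), NDUFAB1 (1.12), the mitochondrial acyl carrier protein, and NDUFA13 (1.01) completed the 9 subunits of complex I that rose at least 2-fold.

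The other 16 supernumerary subunits that rose lay between 0.27 and 0.98 on the log2 scale. NDUFB11, a single-pass membrane-arm subunit, was the highest of them, with 196, 181 and 168 CPM in shPHF19 libraries, against 91.1, 100 and 84.5 CPM in control libraries. NDUFB10 (0.89), NDUFA11 (0.87), NDUFA7 (0.87), NDUFB2 (0.86), NDUFA1 (0.86) and NDUFB8 (0.80) followed, and none of these 7 had overlapping groups. Of all genes tested, 30.9% lay above control without overlap. NDUFB3 (0.78), NDUFA8 (0.76), NDUFA12 (0.65), NDUFA2 (0.61), NDUFB4 (0.57), NDUFA6 (0.49) and NDUFA5 (0.37) lay lower. The call of NDUFA5 was lost with library totals alone (0.16; edgeR adjusted p = 0.21), within a range of 1.53e-09 to 0.21. NDUFS4, a small subunit that holds the NADH-oxidising module in place, had 28.6, 29.1 and 34.7 CPM in shPHF19 libraries, against 26.5, 25.5 and 22.7 CPM in control libraries, which do not overlap (0.31; edgeR adjusted p = 0.0288). NDUFS4 no longer passed without shPHF19 replicate 3 (edgeR adjusted p = 0.176) or control replicate 3 (0.136), within a range of 1.35e-04 to 0.485. NDUFB9 had the smallest rise of the 16 (0.27), which no longer passed without control replicate 3 (edgeR adjusted p = 0.0576), within a range of 1.59e-05 to 0.496.

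At the other end of complex I, 5 supernumerary subunits did not pass the test. Their log2 fold changes were 0.22 for NDUFV3, 0.17 for NDUFC2, 0.16 for NDUFB1, 0.13 for NDUFB5 and 0.08 for NDUFA10 (edgeR adjusted p = 0.0711 to 0.446). NDUFA10 had 74, 73.5 and 81.5 CPM in shPHF19 libraries and 76.4, 70.3 and 69.4 CPM in control libraries, which overlap. NDUFB5 passed without shPHF19 replicate 1 (edgeR adjusted p = 0.0408) or control replicate 1 (0.0243), within a range of 1.57e-06 to 0.808 over all alternatives. With a trend on GC content taken out, NDUFB5 (0.38), NDUFB1 (0.23) and NDUFV3 (0.20) passed as higher. Membrane-arm subunits of the NDUFB group were thus found both among the largest rises and among those that missed the threshold.

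Complex II, succinate dehydrogenase, links the citric acid cycle to ubiquinone, and its 4 subunits did not move alike. SDHA, the flavoprotein that oxidises succinate, had 329, 298 and 298 CPM in shPHF19 libraries, against 126, 141 and 136 CPM in control libraries. The log2 fold change was 1.20 (SE 0.084; edgeR adjusted p = 4.68e-17), and the groups stood well apart. SDHB, the iron-sulphur subunit bound to it, had 103, 107 and 106 CPM in shPHF19 libraries, against 56.9, 61.6 and 59.3 CPM in control libraries (0.83). SDHC, one of the pair of membrane anchors, had 119, 129 and 110 CPM in shPHF19 libraries, against 89.1, 83.6 and 75 CPM in control libraries (0.53). SDHD, the other anchor, had 90.3, 104 and 114 CPM in shPHF19 libraries, against 133, 124 and 121 CPM in control libraries. Its log2 fold change was -0.29 (SE 0.0903; edgeR adjusted p = 0.00453), and each shPHF19 library was below each control library.

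SDHD fell under all 18 alternatives, with a log2 fold change from -0.50 to -0.20 and an adjusted p from 1.69e-05 to 0.0488. The gene lies on the plus strand of chromosome 11 from 112086773 to 112120013 (GRCh38, GENCODE 29), and its exons overlap those of TIMM8B on the opposite strand. TIMM8B, a chaperone of mitochondrial protein import, averaged 76.6 CPM in shPHF19 cells and 44.6 CPM in control cells (log2 fold change 0.78). No source used here says whether reads were counted by strand. GENCODE names 3 pseudogenes each for SDHA and SDHD, and reads from such copies could be counted with either gene or lost.

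**Figure D2:**
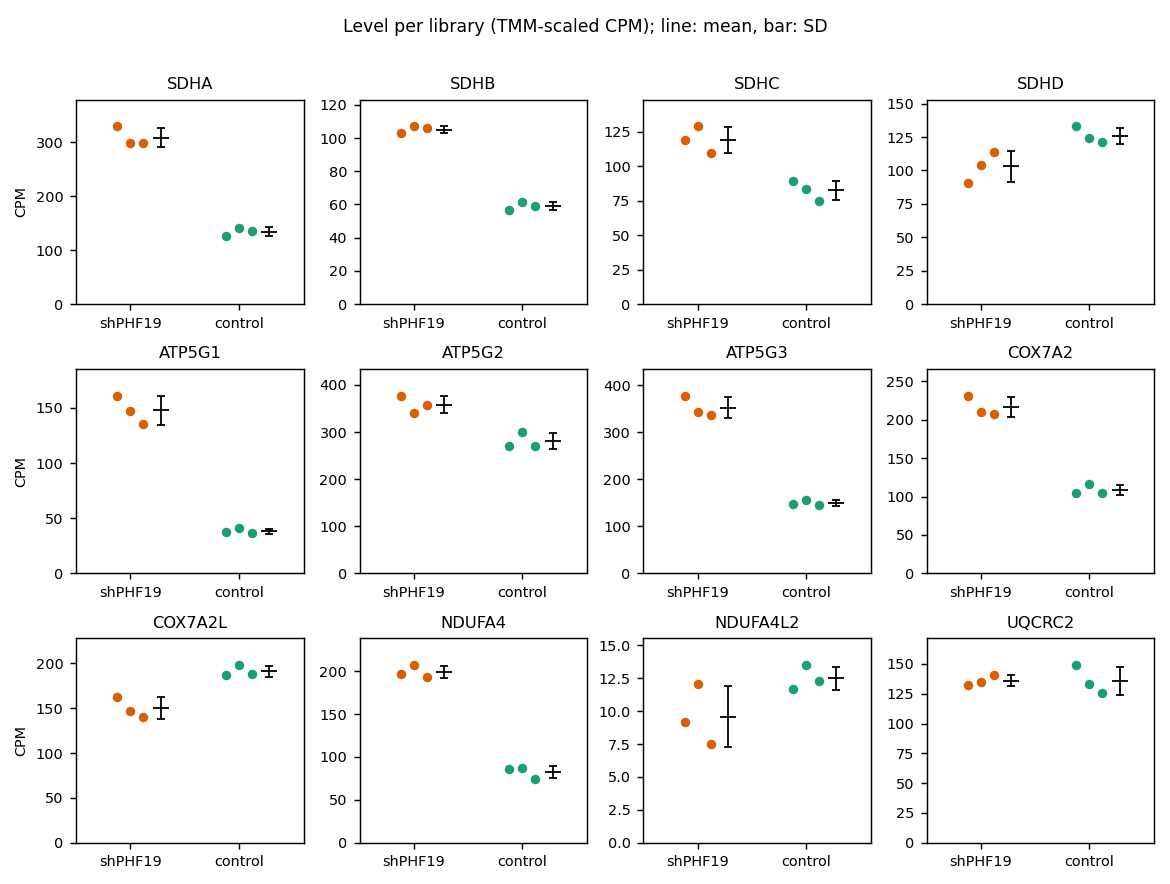
Level of 12 members in every library, in TMM-scaled CPM (vertical axes, each from 0), with the 3 shPHF19 libraries (orange) left of the 3 control libraries (green) and the mean and SD of each group beside its points. SDHD and COX7A2L lie lower in shPHF19 cells while SDHA and COX7A2 lie higher, and UQCRC2 has the same mean in both groups (136 CPM).

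Complex III passes electrons from ubiquinol to cytochrome c. Of its 9 tested subunits 7 rose and 2 did not pass the test, with a median log2 fold change of 0.84. Both nuclear-encoded subunits with a redox centre rose. CYC1, cytochrome c1, averaged 223 ± 14.7 CPM in shPHF19 cells and 139 ± 13.8 CPM in control cells (SD, n = 3 each; 0.68), and UQCRFS1, the Rieske iron-sulphur protein, averaged 138 ± 6.11 CPM in shPHF19 cells and 75.7 ± 5.10 CPM in control cells (0.86). UQCR11, a small membrane subunit encoded on chromosome 19 between 1597172 and 1605490 (minus strand), had the highest log2 fold change of the complex. It had 167, 144 and 153 CPM in shPHF19 libraries, against 59.6, 65.1 and 57.8 CPM in control libraries (1.35, SE 0.0908; edgeR adjusted p = 1.35e-17), with no overlap. UQCR10, another small subunit, had a log2 fold change of 0.99, UQCRQ, which binds cytochrome b, 0.93, and UQCRH, the hinge protein next to cytochrome c1, 0.64.

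The pair of core proteins of complex III, which face the matrix and carry no redox centre, differed. UQCRC1 had 287, 269 and 239 CPM in shPHF19 libraries, against 134, 158 and 152 CPM in control libraries (log2 fold change 0.84; edgeR adjusted p = 1.06e-11). UQCRC2 had 132, 135 and 141 CPM in shPHF19 libraries and 149, 133 and 126 CPM in control libraries, which overlap (log2 fold change 0.0018; edgeR adjusted p = 0.988). UQCRB, which helps to bind ubiquinone, averaged 112 ± 6.86 CPM in shPHF19 cells and 126 ± 12.4 CPM in control cells (-0.17; edgeR adjusted p = 0.086). Both UQCRC2 and UQCRB passed as lower with library totals alone, at -0.20 and -0.38 (edgeR adjusted p = 0.0363 and 4e-04). With a trend on GC content taken out, UQCRC2 passed in the opposite direction, as higher, at 0.14 (edgeR adjusted p = 0.0341), and UQCRB stood at 0.10 and did not pass (0.136). Over all alternatives the adjusted p ran from 0.0341 to 0.99 for UQCRC2 and from 4e-04 to 0.694 for UQCRB. UQCRHL, an intronless copy of UQCRH, averaged 4.13 CPM in shPHF19 cells and 2.71 CPM in control cells and did not pass the test (0.60; edgeR adjusted p = 0.0682), but passed without shPHF19 replicate 2 (0.0352) or control replicate 1 (0.0293), within a range of 0.0293 to 0.332. Reads of UQCRH and UQCRHL may be shared.

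CYCS, cytochrome c, carries electrons between complexes III and IV and also activates caspases once it leaves the mitochondrion. It had 293, 330 and 339 CPM in shPHF19 libraries, against 227, 207 and 200 CPM in control libraries, with no overlap (log2 fold change 0.60; edgeR adjusted p = 2.63e-08). GENCODE names 40 CYCS pseudogenes, the most of any member, so its level depends on how shared reads were counted.

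Complex IV, cytochrome c oxidase, had 11 subunits of the usual isoforms in the table, and all 11 rose. Their log2 fold changes lay between 0.44 and 1.30, with a median of 0.85. COX6B1, which faces the cytochrome c side, had the highest, with 239, 216 and 198 CPM in shPHF19 libraries against 88.0, 94.5 and 82.0 CPM in control libraries (SE 0.0888; edgeR adjusted p = 1.77e-17). NDUFA4, once assigned to complex I and now counted to complex IV, had 197, 207 and 193 CPM in shPHF19 libraries against 86.0, 87.6 and 74.6 CPM in control libraries (1.27). Both rose more than 2-fold in these means, with no overlap. COX4I1, the subunit at which ATP regulates the enzyme, had the lowest rise, at 392 ± 25.4 CPM in shPHF19 cells and 288 ± 21.4 CPM in control cells (SD, n = 3 each; 0.44). COX5A (0.85) and COX5B (0.70), which bind to the matrix side, COX6A1 (0.72), COX6C (0.93), COX7A2 (0.996), COX7B (0.86), COX7C (0.78) and COX8A (0.72) lay between. All 11 rose under each of the 18 alternatives tried.

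Complex IV also has isoforms used in other tissues or conditions, and these were absent or low in Kasumi-1. COX4I2, the lung and hypoxia form, COX6A2, the heart and muscle form, COX7B2 and COX8C had no count in any library. That allows up to 0.181 to 0.211 CPM per library, the value of 3 counts before TMM scaling. COX6B2, the testis form, and COX7A1, the muscle form, had at most 4 counts in a library. NDUFA4L2, a hypoxia-inducible relative of NDUFA4, had 9.21, 12.1 and 7.5 CPM in shPHF19 libraries and 11.7, 13.5 and 12.3 CPM in control libraries. The groups overlap, and the log2 fold change of -0.38 missed the threshold (edgeR adjusted p = 0.0516). NDUFA4L2 passed as lower under many alternatives, however. Among them were library totals alone (edgeR adjusted p = 0.00349), upper-quartile factors (0.0131), the length trend removed (0.0208) and the GC trend removed (0.00504). Others were limma-voom (its adjusted p = 0.0445) and leaving out shPHF19 replicate 2 (edgeR adjusted p = 0.0112) or control replicate 1 (0.0447). The adjusted p ran from 0.00349 to 0.298 over all alternatives. The exons of NDUFA4L2 overlap those of SHMT2, a serine-metabolising enzyme on the opposite strand. SHMT2 averaged 472 CPM in shPHF19 cells and 385 CPM in control cells. Per exon length, NDUFA4L2 made up 5.72 ± 1.09% of NDUFA4 and NDUFA4L2 together in shPHF19 cells and 16.1 ± 1.29% in control cells (SD, n = 3 each; 2-sided exact permutation test, p = 0.1, the lowest p possible with 3 libraries a group). With the length of the principal transcript, a choice made after seeing the data, NDUFA4L2 made up 7.91% in shPHF19 cells and 21.4% in control cells. Such a share also falls when NDUFA4 rises, as it did here.

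COX7A2L is related in sequence to COX7A2 but acts as a factor that joins complexes III and IV into supercomplexes. It had 163, 147 and 140 CPM in shPHF19 libraries, against 187, 198 and 188 CPM in control libraries, with no overlap. The log2 fold change was -0.35 (SE 0.0842; edgeR adjusted p = 3.82e-04), and it was lower under all alternatives, from -0.56 to -0.22. COX7A2 itself had 231, 210 and 207 CPM in shPHF19 libraries, against 105, 116 and 104 CPM in control libraries. The related genes thus moved in opposite directions.

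Complex V makes ATP in its soluble F1 part, driven by the rotation of a ring of c subunits in the membrane. Of 14 tested subunits 13 rose and 1 did not pass the test, with a median log2 fold change of 0.56. The 8 tested subunits of F1 and the stalks had a median of 0.37, and the 6 of the membrane part a median of 0.99.

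ATP5B (now ATP5F1B), the catalytic beta subunit, was the most abundant member per length, at 808 CPM per kb of exons in shPHF19 cells and 418 in control cells, and so it was per kb of its principal transcript. It had 1950, 1880 and 1800 CPM in shPHF19 libraries, against 955, 1020 and 935 CPM in control libraries (log2 fold change 0.95, SE 0.0787; edgeR adjusted p = 1.29e-14). ATP5A1 (ATP5F1A), the alpha subunit that alternates with beta in the F1 ring, had 777, 815 and 805 CPM in shPHF19 libraries, against 611, 645 and 557 CPM in control libraries (0.40, SE 0.0799). Neither gene's groups overlapped. ATP5D (ATP5F1D), the delta subunit of the rotor, had a log2 fold change of 0.73, and ATP5J (ATP5PF), coupling factor 6 of the peripheral stalk, also 0.73. ATP5C1 (ATP5F1C), the gamma subunit that forms the rotor's axle, had 241, 299 and 285 CPM in shPHF19 libraries and 261, 247 and 223 CPM in control libraries, which overlap (0.17; edgeR adjusted p = 0.0786). It passed as higher without shPHF19 replicate 1 (edgeR adjusted p = 0.00433) or control replicate 1 (0.0273), within a range of 3.75e-06 to 0.778. The other peripheral stalk subunits had log2 fold changes of 0.28 (ATP5F1, now ATP5PB), 0.34 (ATP5H, now ATP5PD) and 0.31 (ATP5O, now ATP5PO), and these 3 calls were lost with library totals alone (edgeR adjusted p = 0.154 to 0.486), ATP5F1 also without control replicate 3 (0.0584), within a range of 6.94e-08 to 0.486.

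ATP5E (ATP5F1E), the epsilon subunit, had 1 to 13 counts in a library and was not tested. The table also holds genes that join neighbours, SLMO2-ATP5E, SYNJ2BP-COX16, NDUFC2-KCTD14 and ATP5J2-PTCD1, and each had 0 counts in all 6 libraries. No source used here says how reads shared by such overlapping genes were counted.

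In the membrane part, 3 genes encode the same mature c subunit with different import signals. ATP5G1 (ATP5MC1), on the plus strand of chromosome 17 from 48892765 to 48895871, had the highest log2 fold change of all tested members. It had 161, 147 and 135 CPM in shPHF19 libraries, against 37.3, 40.9 and 36.6 CPM in control libraries, a 3.86-fold difference (1.95, SE 0.0958; edgeR adjusted p = 1.47e-22). Each shPHF19 library was more than 3-fold above each control library. ATP5G3 (ATP5MC3) had 378, 343 and 337 CPM in shPHF19 libraries, against 148, 157 and 146 CPM in control libraries (1.23). ATP5G2 (ATP5MC2) had 377, 340 and 357 CPM in shPHF19 libraries, against 271, 301 and 270 CPM in control libraries (0.35), a call lost with library totals alone (0.14; edgeR adjusted p = 0.108, within a range of 6.54e-06 to 0.108).

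The make-up of the c-ring transcripts therefore differed between groups. Divided by exon length, ATP5G1 made up 28.5 ± 1.24% of the 3 genes in shPHF19 cells and 13.7 ± 0.0839% in control cells (SD, n = 3 each). ATP5G2 made up 45.3 ± 1.38% in shPHF19 cells and 65.6 ± 0.336% in control cells, and ATP5G3 26.2 ± 0.141% in shPHF19 cells and 20.7 ± 0.361% in control cells. No share overlapped between groups (2-sided exact permutation test, p = 0.1 for each, again the lowest possible). With the length of the principal transcript, a choice made after seeing the data, ATP5G1 made up 49.2% in shPHF19 cells and 26.7% in control cells, so the size of a share depends on the length used. GENCODE names 7 ATP5G1 pseudogenes and 3 of ATP5G2.

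**Figure D3:**
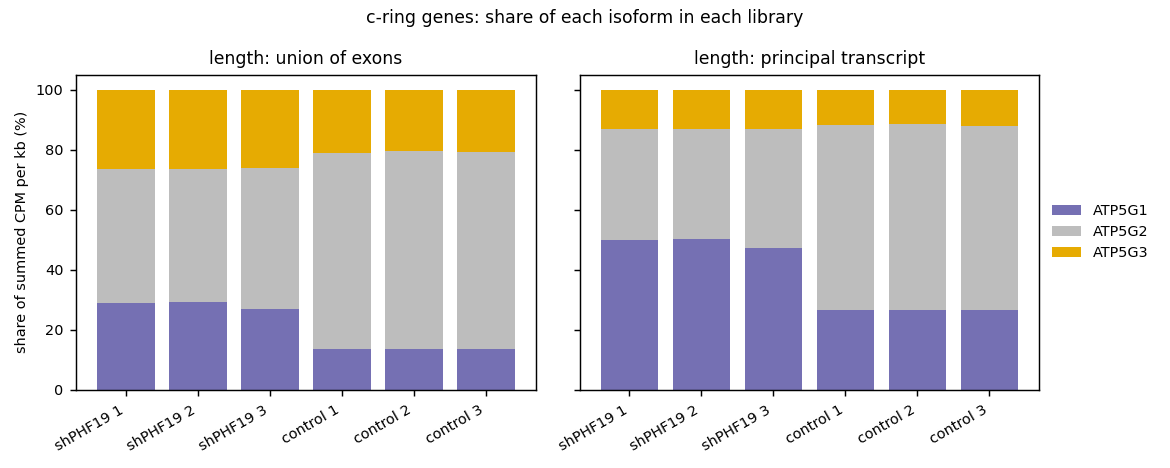
Share of each of the 3 c-ring genes in their summed CPM per kb (vertical axis, percent) in each library, the 3 shPHF19 libraries left of the 3 control libraries, with exon union length in the left panel and principal transcript length in the right panel. ATP5G1 takes 27.1 to 29.3% in shPHF19 libraries and 13.6 to 13.7% in control libraries in the left panel.

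The remaining membrane subunits rose too. ATP5J2 (ATP5MF), the f subunit, had 70.9, 51.7 and 55.7 CPM in shPHF19 libraries, against 24.0, 23.9 and 19.1 CPM in control libraries (1.41), and ATP5I (ATP5ME), the e subunit that helps to pair ATP synthases, averaged 67.0 ± 4.31 CPM in shPHF19 cells and 39.7 ± 0.883 CPM in control cells (0.75). ATP5L (ATP5MG), the g subunit, had a log2 fold change of 0.33, lost with library totals alone (edgeR adjusted p = 0.179). A pair of small subunits that the symbol rule misses because of their older names, USMG5 (ATP5MK) and C14orf2 (ATP5MJ), also rose, by 0.61 and 0.41 on the log2 scale. ATPIF1, the inhibitor that binds F1 when the membrane loses its potential and likewise outside the rule, averaged 52.9 ± 3.08 CPM in shPHF19 cells and 60.7 ± 3.72 CPM in control cells (-0.20; edgeR adjusted p = 0.0798). These 3 genes were added after their values were seen. Despite their names, ATP5S (DMAC2L) and ATP5SL (DMAC2) are not subunits of the enzyme. ATP5SL, which helps to assemble the distal membrane arm of complex I, rose (0.48), and ATP5S stood at 0.02 (edgeR adjusted p = 0.943). ATP5L2, a copy of ATP5L, had 1 count in all.

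**Figure D4:**
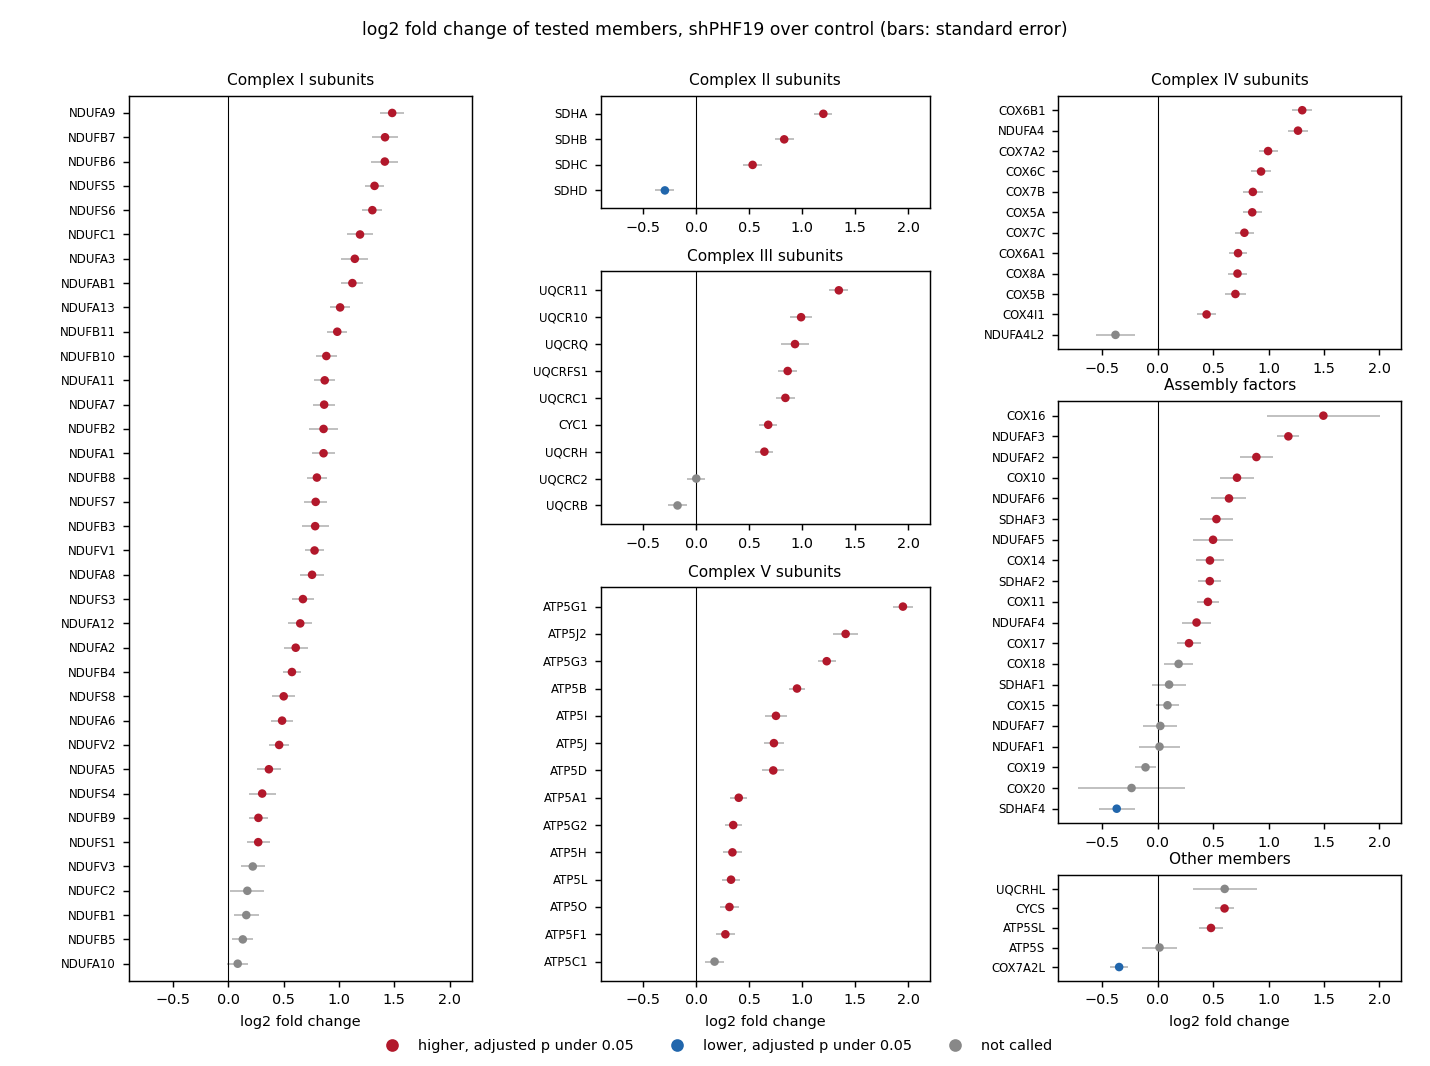
log2 fold change of shPHF19 over control (horizontal axes) with its standard error for 100 of the 101 tested members, grouped by complex and role. ATP5G1 lies farthest to the right at 1.95, and the 3 blue points are SDHD (-0.29), SDHAF4 (-0.37) and COX7A2L (-0.35).

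Assembly factors help to build the complexes and are not part of the finished enzymes. Of 20 tested, 12 rose, 1 fell and 7 missed the threshold, with a median log2 fold change of 0.40. For complex I, 5 of 7 rose. NDUFAF3, which binds the early ubiquinone-side intermediate, had 96.2, 94.9 and 91.5 CPM in shPHF19 libraries, against 36.0, 44.6 and 44.2 CPM in control libraries (1.18, SE 0.0996; edgeR adjusted p = 2.45e-14), with no overlap. NDUFAF4, its partner in that step, had 22.0, 21.3 and 25.2 CPM in shPHF19 libraries, against 17.3, 16.9 and 19.5 CPM in control libraries (0.35; edgeR adjusted p = 0.0229). NDUFAF2, a late-acting relative of NDUFA12, rose by 0.89, NDUFAF6 by 0.64 and NDUFAF5, which modifies NDUFS7, by 0.50. The calls of NDUFAF4 and NDUFAF5 were each lost without single libraries. For NDUFAF4 these were shPHF19 replicate 3 (edgeR adjusted p = 0.113), control replicate 1 (0.0568) and control replicate 2 (0.0659), within a range of 8.53e-06 to 0.36. For NDUFAF5 they were shPHF19 replicate 2 (edgeR adjusted p = 0.0552), control replicate 2 (0.0531) and control replicate 3 (0.07), within a range of 6.13e-04 to 0.157. NDUFAF1, part of the membrane-arm intermediate, and NDUFAF7, an arginine methyltransferase, had log2 fold changes of 0.02 each and did not pass the test.

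The complex II factors moved in both directions. SDHAF2, which helps to attach FAD to SDHA, averaged 60.4 ± 4.17 CPM in shPHF19 cells and 43.6 ± 3.73 CPM in control cells (SD, n = 3 each; 0.47). SDHAF3, which acts with SDHAF1 on the iron-sulphur subunit, rose by 0.53, a call lost with library totals alone (edgeR adjusted p = 0.0555), and SDHAF1 stood at 0.10 (edgeR adjusted p = 0.588). SDHAF4, which receives flavinylated SDHA before it meets SDHB, had 9.58, 11.5 and 9.78 CPM in shPHF19 libraries, against 13.2, 12.0 and 14.8 CPM in control libraries (-0.37; edgeR adjusted p = 0.0445). This call was lost without shPHF19 replicate 1 (edgeR adjusted p = 0.122), shPHF19 replicate 3 (0.114), control replicate 1 (0.0705) or control replicate 3 (0.197) and with DESeq2 (0.105), within a range of 0.00229 to 0.197, while its direction stayed the same under all alternatives.

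Of the 9 complex IV factors 5 rose. COX10, which makes heme O from heme B, had 16.9, 17.2 and 18.9 CPM in shPHF19 libraries, against 12.8, 9.90 and 9.60 CPM in control libraries (0.71), whereas COX15, which turns heme O into heme A, had 56.3, 53.6 and 47.7 CPM in shPHF19 libraries and 51.0, 48.6 and 48.7 CPM in control libraries (0.09; edgeR adjusted p = 0.472). Only the first of these consecutive enzymes passed the test, and the difference between them was not tested. Among the copper factors, COX11, which supplies copper to COX1, rose by 0.45. COX17, the copper chaperone upstream of it, rose by 0.28 (edgeR adjusted p = 0.0233), but no longer passed without control replicate 3 (0.235) and with library totals alone (0.554), within a range of 3.24e-04 to 0.554. COX19, a further copper factor, stood at -0.11 (edgeR adjusted p = 0.338), but passed as lower with library totals alone (-0.32; edgeR adjusted p = 0.00496) and with a trend on GC content taken out (-0.18; 0.0265), within a range of 0.00496 to 0.696. COX14, which binds newly made COX1, rose by 0.47, a call lost with library totals alone (edgeR adjusted p = 0.0629). COX16 had 1.71, 1.49 and 1.86 CPM in shPHF19 libraries, against 0.922, 0.766 and 0.0648 CPM in control libraries. Its log2 fold change of 1.495 has a wide error (SE 0.507; edgeR adjusted p = 0.00992), and without control replicate 3 it was 0.99 and no longer passed (0.105), within a range of 0.00269 to 0.105. COX18 (0.19) and COX20 (-0.24), which insert or stabilise COX2, did not pass the test (edgeR adjusted p = 0.212 and 0.691), although COX18 did without shPHF19 replicate 1 (0.0448), within a range of 0.0125 to 0.922.

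Genes of the same pathway outside the symbol rule were also followed. Their counts stand beside those of all genes tested, of which 60.2% passed, 29.4% as higher and 30.9% as lower. No list was tested as a set. Of 33 further assembly factors tested, 19 rose (57.6%) and 1 fell (3.03%). The 3 rises with the smallest adjusted p were COA4 (log2 fold change 1.23), a complex IV factor of the intermembrane space, ACAD9 (1.04), a complex I factor, and PET100 (1.05), a complex IV factor. COA5, needed for complex IV, averaged 20.7 ± 1.90 CPM in shPHF19 cells and 31.5 ± 2.15 CPM in control cells (-0.60; edgeR adjusted p = 4.62e-05). Of 13 genes of ubiquinone synthesis 6 rose (46.2%) and 3 fell (23.1%). PDSS1, which with PDSS2 builds the isoprenoid tail, had 26.4, 34.3 and 31.4 CPM in shPHF19 libraries, against 9.29, 11.4 and 10.7 CPM in control libraries (1.55), with no overlap. ADCK3 (COQ8A; 0.60) and COQ4 (0.55) rose too, while COQ10B (-0.59), COQ10A (-0.35) and COQ5 (-0.25) fell. Among 7 other enzymes that feed electrons to ubiquinone, 3 rose (42.9%) and 1 fell (14.3%). ETFA (0.70), DHODH (0.81) and ETFB (0.47) rose and SQRDL (SQOR, -0.48), which oxidises sulphide, fell.

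Of 20 regulators of respiratory genes and of mitochondrial DNA, 9 were higher, 3 were lower and 8 did not pass the test. The share that passed was near the 60.2% of all genes tested, of which 29.4% were higher and 30.9% lower. SLIRP, which stabilises mitochondrial mRNAs together with LRPPRC, had 40.3, 35.9 and 38.8 CPM in shPHF19 libraries, against 14.6, 9.19 and 8.11 CPM in control libraries (log2 fold change 1.85; edgeR adjusted p = 6.38e-15). POLG, the mitochondrial DNA polymerase, averaged 195 ± 13.7 CPM in shPHF19 cells and 93.9 ± 4.49 CPM in control cells (1.05), and SSBP1, which coats single-stranded mitochondrial DNA, rose by 0.97. Of the factors whose letters were searched in the promoters, NRF1 had 42.2, 44.8 and 40.6 CPM in shPHF19 libraries, against 21.1, 21.7 and 23.0 CPM in control libraries (0.95; edgeR adjusted p = 8.66e-10), with no overlap. GABPA, the DNA-binding subunit of GABP, had -0.02 and YY1 -0.18, and neither passed the test (edgeR adjusted p = 0.92 and 0.061). The GABP cofactor subunits GABPB2 (-0.98) and GABPB1 (-0.26) and TEFM (-0.49), a mitochondrial transcription elongation factor, fell. TFAM, which packages mitochondrial DNA, averaged 89.8 ± 13.5 CPM in shPHF19 cells and 86.6 ± 12.4 CPM in control cells (0.05; edgeR adjusted p = 0.681). PPARGC1A, the PGC-1 alpha coactivator, had at most 7 counts in a library and was not tested. The related coactivators PPARGC1B (0.62; edgeR adjusted p = 2.92e-06) and PPRC1 (0.78; edgeR adjusted p = 3.26e-09) rose. NRF1, GABPA, YY1, TFAM, PPARGC1A, PPARGC1B and PPRC1 lie outside the rule for named genes and were chosen after their values were seen.

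The authors' deposited table of their own comparison lists 71 members, and all 71 have a positive log2 fold change there. It holds no member that did not pass the test here, and 11 members called here are not listed in it, SDHD, SDHAF4 and COX7A2L included. For ATP5G1 the authors' deposited table gives a log2 fold change of 1.96.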

How the data were processed

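RNA from 3 shPHF19 and 3 control libraries of Kasumi-1 cells was measured (titles gave group and replicate). The authors used hg38, HTSeq 0.11.2 and HISAT2 2.1.0, per the submitters' processing notes, and the labels' protocols name total RNA and the KAPA Hyper Prep kit. No source used here gives the annotation, the strand setting or the treatment of shared reads. The authors deposited whole-number counts per gene symbol, not normalized. Names turned into dates (28) were tested but not named. Their deposited results of the same comparison hold a mean normalized signal, log2 fold changes and p-values for 5740 genes, the largest adjusted p being 0.00993, from a tool that no source used here names.

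The deposited counts were tested with edgeR 4.0.16 (R 4.3.3): filterByExpr, TMM scaling, quasi-likelihood F test (robust) with group as the only term, and Benjamini-Hochberg adjustment over 13014 tested genes (threshold 0.05). A standard error is the log2 fold change over the square root of F. TMM-scaled CPM were computed here, and 3 counts correspond to 0.181 to 0.211 CPM before TMM scaling. Intervals and floors cover counting error only. Chi-square per degree of freedom between replicates was 4.63 to 11.7, beyond sampling noise, so each was kept.

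Positions and lengths came from GENCODE 29 and promoters from RefSeq (GRCh38.p14). All 111 members were matched, by symbol or through a RefSeq synonym, and 20 have been renamed since. Exons of 38 tested members overlap another counted gene (11 on the same strand, 31 on the opposite strand), and 50 members have named pseudogenes. Genes that overlap members that rose moved both ways. WDR77 (over ATP5F1, log2 fold change 1.31) and PTPMT1 (over NDUFS3, 1.00) rose, whereas TATDN1 (over NDUFB9, -1.07) fell. The part of shared reads in the members' levels was not tested. The members and lists were chosen with earlier results of these data known. Named were core catalytic subunits, isoform pairs, assembly factors, members that fell or did not pass, the 2 largest rises per list, and, of other pathway lists, the 3 rises and 3 falls with the smallest adjusted p. Other members are given by symbol and value, and those also described, such as NDUFB6, NDUFB11 and NDUFS4, were chosen after their values were seen. The values of 1 member, which stays in the fit and in the counts, are not reported here. The alternatives were other scalings and filters, DESeq2 1.42.0, limma 3.58.1 (voom), corrections for exon length and GC content, the replicate number as a block, and each library left out. The fit was run on simulated data in which few genes changed, as many up as down. That run cannot test the scaling between libraries.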

Additional observations from a re-analysis of the deposited data

How the results depend on the processing

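Of the 101 tested members, 66 kept their direction and their side of the threshold under all 18 alternatives, 64 of them higher and 2 lower (SDHD and COX7A2L). Changing the scaling moved the counts. With library totals alone, 65 members rose and 7 fell, among them 2 of complex III, complex V had 8 higher, and the assembly factors 7 higher and 2 lower. The members' median log2 fold change was then 0.444 against -0.238 for all genes. With upper-quartile factors 72 rose and 5 fell (1 of complex III), with medians of 0.547 and -0.135. For all genes together the median stood at -0.017 with DESeq2 size factors, -0.0773 without a filter on low counts, -0.0766 with DESeq2's Wald test, 0.0104 with the GC trend removed, and 0.0093 with the replicate block added to that.

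SDHAF4, the single assembly factor that fell, no longer passed with DESeq2 size factors, without a filter, with the Wald test, with limma-voom or with the replicate block, which left 0 lower. Leaving out 1 library at a time gave 72 to 82 members higher and 2 to 4 lower, a members' median of 0.626 to 0.738, and 0 to 1 assembly factors lower.

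Same-numbered libraries did not deviate together from their group means (correlations of -0.164, -0.00655 and -0.0537). Differently numbered libraries gave -0.127 to 0.173. With 3 libraries a group, such values cannot show whether the numbers pair the samples. With the replicate block 77 members rose and 2 fell, and the count of all genes called was 7307, against 7835 without it.

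Members that did not pass the test changed sign in some settings. With library totals alone the log2 fold changes were -0.0304 (ATP5C1), -0.19 (ATP5S), -0.12 (COX15), -0.0168 (COX18), -0.12 (NDUFA10), -0.19 (NDUFAF1), -0.18 (NDUFAF7), -0.043 (NDUFB1), -0.0735 (NDUFB5), -0.0328 (NDUFC2), -0.10 (SDHAF1) and -0.20 (UQCRC2). With upper-quartile factors they were -0.0868 (ATP5S), -0.0156 (COX15), -0.0177 (NDUFA10), -0.0871 (NDUFAF1), -0.0806 (NDUFAF7), -0.0011 (SDHAF1) and -0.10 (UQCRC2). With the length trend removed they were -0.11 (NDUFAF1), -0.0318 (NDUFAF7) and -0.0505 (SDHAF1), and with the replicate block added -0.0882 (NDUFAF1), -0.0236 (NDUFAF7) and -0.0618 (SDHAF1). With the GC trend removed they were -0.0179 (SDHAF1) and 0.10 (UQCRB), and with the replicate block added 0.0198 (COX20), -0.0296 (SDHAF1) and 0.10 (UQCRB). With a minimum of 1 CPM in 3 libraries it was -0.0072 (UQCRC2). With 1 library left out they ran from -0.0295 to 0.0958 for ATP5S, -0.5003 to 0.0773 for COX20, -0.183 to 0.185 for NDUFAF1, -0.0869 to 0.204 for NDUFAF7, -0.0085 to 0.258 for SDHAF1 and -0.0449 to 0.0714 for the UQCRC2 log2 fold change. The cause of these changes was not tested.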
